A study of Mus musculus with 2 samples.

Results

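Accessible sites in gene deserts are the stretches of open chromatin that lie far from any protein-coding gene start. They were defined here as peaks present in both libraries on chromosomes 1 to 19 that are centred outside every protein-coding gene body, more than 200 kb from the nearest protein-coding gene 5′ end and more than 1 kb from any annotated transcription start site. Merging the peaks of the libraries wherever they overlapped by 1 bp or more gave 154220 merged peaks in all and 78595 on chromosomes 1 to 19 with a member in both libraries. Of these, 4881 sites (6.21%) met the definition, and they made up 9.26% of the 52731 shared peaks more than 1 kb from a start site. They are set below mainly against the 21420 shared intergenic sites that lie 200 kb or less from a protein-coding 5′ end, called near-gene intergenic sites.

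DNase-seq, in which DNase I cuts DNA that is not wrapped in nucleosomes, was used on tissue of the left cerebral cortex from 2 females. The animals were 2 months old and of the strain B6CASTF1/J, the first-generation hybrid of the strains C57BL/6J and CAST/EiJ, and the labels name no treatment or engineered allele. They form 1 group with 1 library per numbered female, called replicate 1 and replicate 2, although both labels carry the same donor entry. With 1 group there is no comparison between groups, and sites are not independent replicates, so no p-values are given and each value is stated for both libraries. The tissue is a mixture of cells, so a site open in few cells cannot be told apart from a site that is weakly open in many. Shared promoter peaks were present at the outermost 5′ end of 4 of 5 excitatory neuron, 3 of 4 inhibitory neuron, 4 of 4 astrocyte and 2 of 4 oligodendrocyte marker genes. Of the microglial markers 0 of 3 had one, as did 0 of 3 endothelial markers and 0 of 5 markers of tissues outside the brain.

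Gene deserts are long intergenic intervals, often next to genes that regulate development, and some are known to hold enhancers that act on genes far away along the chromosome. Enhancers are short regions bound by transcription factors, which keep the DNA open and can protect it from DNase I as a footprint. CTCF is a DNA-binding protein that anchors chromatin loops together with cohesin. AP-1 factors (Fos and Jun dimers) respond to neuronal activity, and NEUROD factors are basic helix-loop-helix proteins of excitatory neurons. RFX and MEF2 factors also act in neurons. The gene nearest to a desert site is given as a landmark and was not shown to be its target.

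The sequences of 5 desert sites are shown because each carries a match to a factor motif that lay under a deposited footprint in both libraries. Each is at most 300 bases long and has under 10% of its 31-base words elsewhere in the genome. They were chosen for high signal, but not from every chromosome, so a site shown need not be the strongest of its motif. The strand is the plus strand of mm10, the sequence comes from GRCm38.p6 (the same build), and the capitals mark the matches under a footprint in both libraries. The CTCF site lies at chr16:89774381-89774600, 203 kb from the 5′ end of Krtap11-1, a keratin-associated protein gene. The AP-1 site lies at chr5:119167841-119168060, 503 kb from Tbx3, a T-box transcription factor gene. The NEUROD site lies at chr4:81178801-81179000, 264 kb from Mpdz, which encodes a scaffold protein with many PDZ domains. Its window also holds a CTCF match with 1 mismatch. The RFX site lies at chr13:59251341-59251600, 334 kb from Agtpbp1, which encodes an enzyme that removes glutamates from tubulin. The MEF2 site lies at chr11:12742221-12742480, 277 kb from Cobl, an actin nucleator gene. Its window also holds NEUROD and homeobox matches. Only 2 of 74 desert sites with a MEF2 match had it under a footprint in both libraries.
CTCF site near Krtap11-1: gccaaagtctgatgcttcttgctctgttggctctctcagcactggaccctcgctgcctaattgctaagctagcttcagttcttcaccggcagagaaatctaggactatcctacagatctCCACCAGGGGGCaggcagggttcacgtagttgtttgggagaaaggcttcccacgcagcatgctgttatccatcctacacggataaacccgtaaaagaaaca
AP-1 site near Tbx3: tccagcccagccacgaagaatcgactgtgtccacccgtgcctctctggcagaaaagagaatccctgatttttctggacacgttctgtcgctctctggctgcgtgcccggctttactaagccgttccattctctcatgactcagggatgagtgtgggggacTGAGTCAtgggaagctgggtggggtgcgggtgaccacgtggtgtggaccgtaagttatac
NEUROD site near Mpdz: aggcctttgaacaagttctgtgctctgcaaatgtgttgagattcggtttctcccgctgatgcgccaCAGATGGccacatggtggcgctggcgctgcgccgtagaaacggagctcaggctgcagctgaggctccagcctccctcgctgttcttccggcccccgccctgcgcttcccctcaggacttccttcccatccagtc
RFX site near Agtpbp1: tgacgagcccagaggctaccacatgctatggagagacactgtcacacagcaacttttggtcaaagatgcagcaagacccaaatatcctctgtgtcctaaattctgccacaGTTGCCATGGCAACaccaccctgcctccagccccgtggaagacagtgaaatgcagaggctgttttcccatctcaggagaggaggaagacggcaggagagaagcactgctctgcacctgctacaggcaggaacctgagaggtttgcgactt
MEF2 site near Cobl: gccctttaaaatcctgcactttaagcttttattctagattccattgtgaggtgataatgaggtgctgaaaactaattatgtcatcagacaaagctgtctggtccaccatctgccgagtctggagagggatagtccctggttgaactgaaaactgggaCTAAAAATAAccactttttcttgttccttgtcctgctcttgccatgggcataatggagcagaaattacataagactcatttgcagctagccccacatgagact

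All 5 sites held at least 3 footprints in each library. The CTCF site had a signal of 3.36 in replicate 1 and 4.51 in replicate 2, where signal is the height of the cut density that the authors scaled to read depth. Its match lay under a footprint of 28 bp in replicate 1 and 29 bp in replicate 2. The AP-1 site had 2.61 and 3.17, with footprints of 7 and 11 bp over the capitals. The NEUROD site near Mpdz had 3.01 and 3.38, and its capitals lay in footprints of 34 and 32 bp, of the width seen over CTCF matches. The RFX site had 2.02 and 1.80, and the capitals join overlapping matches on both strands under footprints of 19 and 22 bp. The MEF2 site was the weakest of the 5, with 0.746 and 0.495 and footprints of 11 and 9 bp.

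Desert sites were sparse relative to the DNA they lie in. Desert DNA made up 22.2% of the bases on these chromosomes, 531 Mb, and held 9.19 shared sites per Mb, against 26.2 per Mb in near-gene intergenic DNA. Merged peaks that hold a peak of replicate 1 stood at 15.6 per Mb in deserts and 40.4 near genes. Those of replicate 2 stood at 14.6 in deserts and 37.1 near genes. The ratio of desert to near-gene density was 0.351 for shared sites. With each library's own peaks, not merged, it was 0.385 in replicate 1 and 0.391 in replicate 2, so the gap was far larger than the spread between libraries. Introns held 27.7 shared sites per Mb. Desert DNA was 38.8% G and C against 42.3% in near-gene intergenic DNA, and 39.5% of it was soft-masked repeat against 37.8%. The part of base composition in the density was not tested.

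Density fell with distance over the whole range of intergenic sequence and not only at the limit of the definition. It was 33.4 shared sites per Mb within 10 kb of a 5′ end, 28.8 at 10 to 50 kb, 25.2 at 50 to 100 kb and 18.5 at 100 to 200 kb. In the deserts it was 14.5 at 200 to 300 kb, 11.1 at 300 to 500 kb, 6.57 at 500 to 1000 kb and 2.31 beyond. All peaks of replicate 1, shared or not, gave 24.2, 18.3, 11.1 and 5.22 per Mb in those desert bands, and all peaks of replicate 2 gave 21.2, 17.5, 11.1 and 5.27. Just inside the limit, at 200 to 210 kb, lay 262 sites with a median signal of 0.482 in replicate 1 and 0.535 in replicate 2. Just outside, at 190 to 200 kb, lay 256 sites with 0.511 and 0.531. The innermost desert site was 200032 bp and the outermost near-gene site 199999 bp from a 5′ end.

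**Figure D1:**
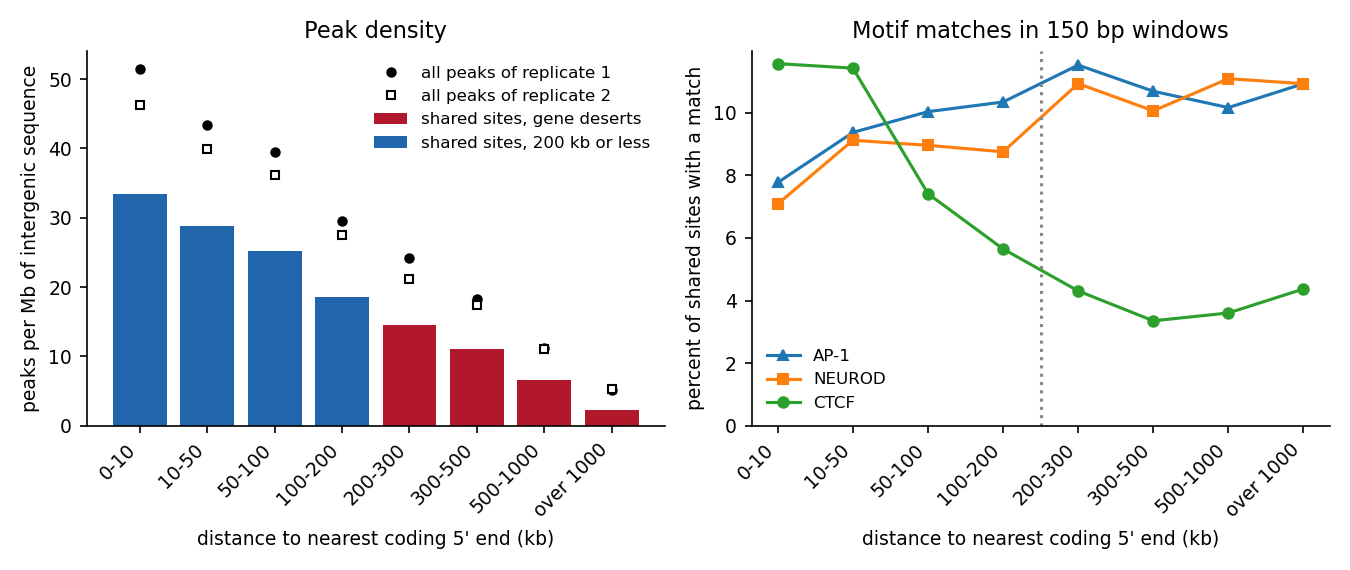
Left, peaks per Mb of intergenic sequence (bars, sites shared by both libraries; points, all peaks of each library) by distance to the nearest protein-coding 5′ end in kb. Right, percent of shared sites with an AP-1, NEUROD or CTCF match in a 150 bp window, with the 200 kb limit dotted. Shared sites fall to 2.31 per Mb in the farthest band, and CTCF falls to 3.35% at 300 to 500 kb while AP-1 and NEUROD stay above 10% in all 4 desert bands.

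The median desert site was 349 kb from a protein-coding 5′ end, and the middle 50% lay between 258 and 509 kb. Beyond 500 kb there were 1265 sites (25.9%), and beyond 1000 kb 183 sites (3.75%). Distances to named genes run to the 5′ end, and the rest of a gene can lie closer to a site. The site farthest from any protein-coding 5′ end lay 2366 kb from that of Cntnap5b, a gene of the contactin-associated protein family, at chr1:102139112-102139253. It was weak, with a signal of 0.203 in replicate 1 and 0.240 in replicate 2. Distance did not exclude strong sites: at chr18:28077821-28078080, 2195 kb from Pik3c3, the signal was 2.10 and 1.80 with 6 and 4 footprints.

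Desert sites were weaker than near-gene sites in both animals. The median signal was 0.451 in replicate 1 and 0.466 in replicate 2 for desert sites, against 0.668 and 0.720 for near-gene intergenic sites. Shared peaks at promoters had medians of 1.43 and 1.39. The log2 difference of medians between desert and near-gene sites was -0.57 in replicate 1 and -0.63 in replicate 2, a mean of -0.60 with an SD of 0.042 (n = 2). A signal over 1 was reached by 11.0% and 14.6% of desert sites, against 29.7% and 35.1% of near-gene sites. The median fell steadily with distance within the deserts, to 0.344 and 0.375 beyond 1000 kb, against 0.489 and 0.514 at 200 to 300 kb. Desert sites were also rarer in the smaller of the authors' peak lists, which held 44.1% of them in both libraries against 57.2% of near-gene sites.

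**Figure D2:**
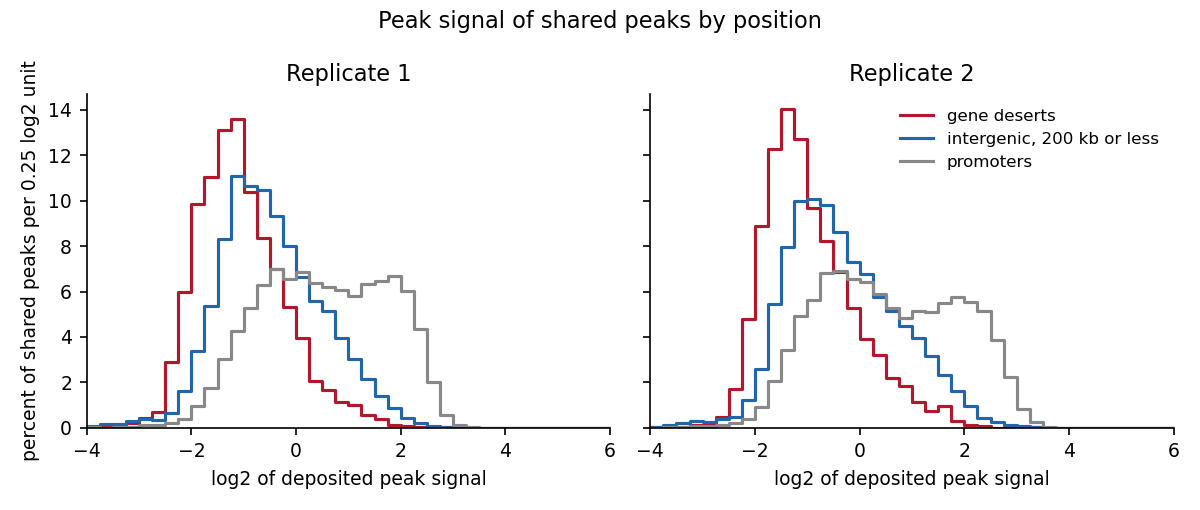
Percent of shared peaks per 0.25 unit of log2 deposited signal in replicate 1 (left) and replicate 2 (right), for gene deserts, near-gene intergenic sites (200 kb or less) and promoters. The desert curve lies to the left of the others in both animals, with medians of 0.451 and 0.466 in linear units.

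Signals at nearly all desert sites were within 2-fold of each other in the animals after centring, 98.8% of desert sites and 98.8% of near-gene sites. The SD of the log2 ratio of the animals over sites was 0.39 in deserts and 0.37 near genes. Of all merged desert peaks, 43.9% were shared, against 51.1% of near-gene peaks. Within signal ranges below 1 the order was the other way: of desert peaks with a signal of 0.5 to 1, 93.7% in replicate 1 and 92.4% in replicate 2 had a peak in the other animal, against 87.4% and 85.6% near genes. At 0.25 to 0.5 the shares were 61.3% and 63.9% in deserts, against 51.1% and 54.7% near genes. Above 1 they were 99.4% in both animals in deserts, against 99.6% and 99.3% near genes.

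Desert sites were GC-richer than the DNA 1 kb to either side, at 49.9% in the central 150 bp against 41.7% in the flanks. Near-gene sites had 52.5% against 45.7%. Over the whole site the mean GC content was 49.1% for desert sites, against 51.7% for near-gene sites, and desert sites held 1.63 CpG dinucleotides per 100 bp against 2.23. The median width was 240 bp against 220 bp. Soft-masked repeats covered on average 9.18% of a desert site, although they made up 39.5% of desert DNA, and 42.3% of desert sites held none. Near-gene sites were similar, with 9.86% of a site, 37.8% of near-gene intergenic DNA and 41.1% of sites with none. Sites in which at least 50% of the 31-base words occur elsewhere in the genome, where reads have more than 1 possible place, numbered 34 (0.697%) in deserts against 318 (1.48%) near genes. These 34 sites had median signals of 0.368 and 0.420, below the other desert sites at 0.451 and 0.466.

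The strongest desert site lay at chr1:102628161-102628360 in the desert between Cntnap5b and the cadherin gene Cdh20, 2140 kb from Cdh20. Its signal was 6.98 in replicate 1 and 11.0 in replicate 2, and 35.9% of its 31-base words occur elsewhere. The second lay at chr10:126511601-126511820, 390 kb from Atp23, a mitochondrial protease gene, with 7.36 and 8.84 and 17.9% of its words elsewhere. The third lay at chr1:122357121-122357300, 789 kb from Ddx18, an RNA helicase gene, with 5.14 and 8.80. The strongest site with no repeated word lay at chr3:50906061-50906260, 318 kb from Noct, the gene of the circadian protein nocturnin, with 4.31 and 6.80. In all 4 the signal was higher in replicate 2.

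The fifth site by signal lay at chr13:83715061-83715300, 211 kb from Mef2c, a transcription factor gene of cortical neurons. It had a signal of 4.07 in replicate 1 and 5.65 in replicate 2. The other 5 of the top 10 were nearest to Pik3c3 (a lipid kinase of autophagy; 4.66 and 4.84), Atp10a (a lipid flippase; 4.26 and 4.82), Slc4a3 (an anion exchanger; 3.91 and 5.05), Icos (a costimulatory receptor of T cells; 3.21 and 4.82) and Zfp536 (a zinc finger protein; 3.52 and 4.37). Of these 10, 1 had a CTCF match in its 150 bp window, the site near Pik3c3. That site also had a NEUROD match, and it was stronger than the CTCF and NEUROD sites whose sequences are printed above. Among the 100 strongest desert sites 22 had a CTCF match. Each of the 10 had at least 3 footprints in each library. None of them was a site with 50% or more of its words elsewhere.

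The sites were spread over many deserts, with a few dense ones. The rule leaves 954 separate deserts, of which 756 held at least 1 site and 198 (20.8%) held none. The empty ones were mostly short, with a median of 55.1 kb against 423 kb for those with sites. The 144 deserts with the most sites held 50% of all sites. Among 341 deserts of 500 kb or more the median density was 6.07 sites per Mb, with the middle 50% between 3.37 and 11.8. By chromosome the density ran from 6.06 per Mb on chromosome 6 to 13.3 per Mb on chromosome 9.

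The desert with the most sites, 54, lay between Arpp21, a gene of a neuronal phosphoprotein regulated by cyclic AMP, and Pdcd6ip, at chr9:112435939-113508258. Its density was 50.4 sites per Mb. Of these sites, 25 formed a cluster of 37.0 kb at chr9:113339989-113376978, in which each site lay within 10 kb of the next. Most sites of the cluster were faint, with a median signal of 0.150 in replicate 1 and 0.187 in replicate 2, and 12 of 25 had a footprint in both libraries. In the smaller peak list of both libraries were 15 of the 25, against 44.1% of all desert sites. A similar cluster of 15 sites in 20.4 kb lay between 4931429L15Rik and Gm4791 on the same chromosome. Its medians were 0.184 and 0.216, 4 of 15 sites had a footprint in both libraries, and 13 of 15 were in the smaller list of both. The cluster of 10 sites next to Hivep2, a zinc finger transcription factor gene, was stronger, with medians of 0.688 and 0.905 and a footprint in both libraries at 9 of 10 sites.

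Next by number came the desert between Auts2, a gene linked to brain development, and Castor2, with 37 sites at 32.0 per Mb, and that between Celf4, which encodes a neuronal RNA-binding protein, and Pik3c3, with 37 sites at 8.98 per Mb. The desert between Tmem132b and Tmem132c held 36 sites. The desert between Bcl11a, which encodes a zinc finger factor of cortical projection neurons, and 5730522E02Rik held 33. The deserts between Ubash3b and Sorl1 (a sorting receptor for the amyloid precursor protein) and between Id2 (an inhibitor of helix-loop-helix factors) and Rnf144a held 30 each. Slc4a3 and Epha4, a receptor for ephrins, bounded 29 sites. Rps24 and Zmiz1, a transcriptional coactivator gene, bounded 27 sites, with the highest median signal of these deserts at 0.848 in replicate 1 and 0.836 in replicate 2. Gfra2, a receptor for neurturin, and Gm9195 bounded 26. In these 10 deserts the highest densities were 53.3 per Mb between Ubash3b and Sorl1 and 50.4 and 49.7 per Mb in the Arpp21 and Zmiz1 deserts. CTCF matches lay at between 0 and 2 sites in each of the 10 deserts, where 3.81% of all desert sites had one.

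**Figure D3:**
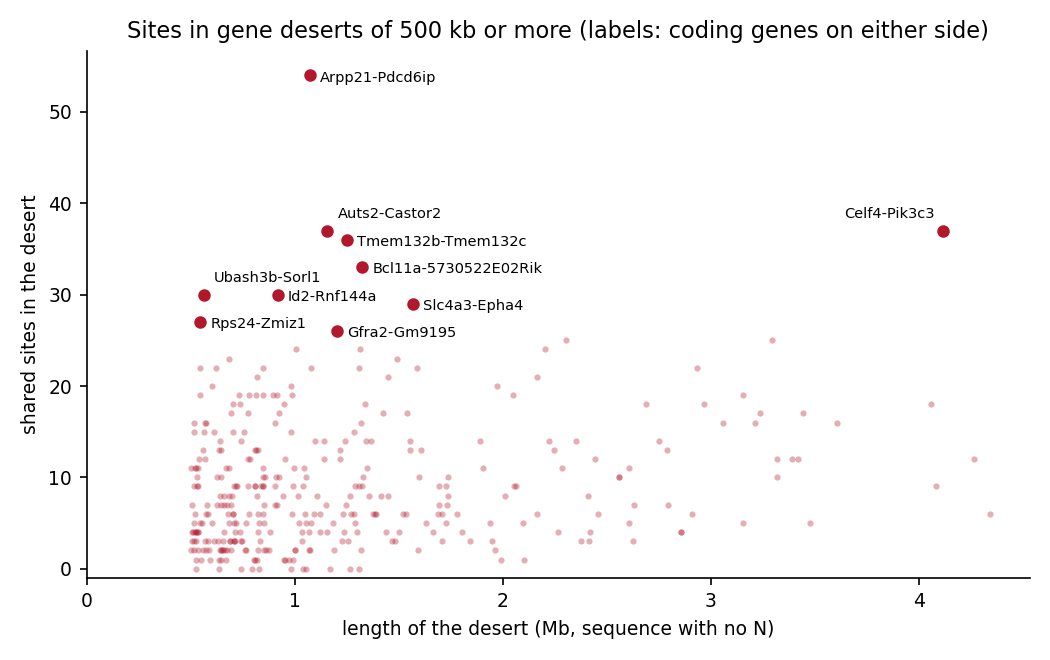
Number of shared sites (y axis) against length in Mb (x axis) for the 341 gene deserts of 500 kb or more, with the 10 richest named by the coding genes on either side. Length and number are loosely related: the Arpp21-Pdcd6ip desert holds 54 sites in 1.07 Mb and the longest desert, Pcdh20-Pcdh9, holds 6 in 4.34 Mb.

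Long deserts could be almost empty. The longest, 4.34 Mb between the protocadherin genes Pcdh20 and Pcdh9, held 6 sites (1.38 per Mb). The next, between the teneurin gene Tenm3 and Aga, held 12 in 4.27 Mb. Of 163 deserts of 1 Mb or more, 5 held no shared site. They lay between Hnf4g and Zfhx4 (1.31 Mb), Pot1a and the glutamate receptor gene Grm8 (1.27 Mb), Ppp6c and Lrp1b (1.17 Mb), Bche and Zbbx (1.06 Mb), and 5730507C01Rik and Gm21863 (1.04 Mb). Peaks of a single library occurred in all 5, between 1 and 5 in replicate 1 only and between 2 and 6 in replicate 2 only. In the last of them 82.9% of the 31-base words occur elsewhere in the genome, and in the other 4 between 22.1% and 28.5%. In the 10 deserts with the most sites the share was 3.04% to 13.9%. In the other 4 of the 5 longest deserts, which held 6 to 18 sites, it was 15.9% to 22.8%, which overlaps the empty ones. Across the 341 deserts of 500 kb or more, the 114 with the highest densities were 40.4% G and C and 30.7% soft-masked at the median, against 37.5% and 45.3% in the 114 with the lowest. The part of unplaceable reads in the empty deserts was not tested.

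Many desert sites lay close to another, and peaks that touch without overlapping count as separate sites. The median distance to the nearest other desert site was 16.8 kb. Another site lay within 2 kb of 24.3% of sites and within 10 kb of 41.4%, and 14.7% had none within 100 kb. The spacing was not compared with that of near-gene sites or with an even spread. Linked at 10 kb, 2859 sites (58.6%) stood alone, and 29 clusters of at least 5 sites held 192. Bodies of annotated long noncoding RNA genes, which the definition does not leave out, held 685 sites (14.0%) on 9.51% of desert bases, against 12.0% of near-gene sites. The noncoding gene 3110039I08Rik held 23 of them, in the Ubash3b to Sorl1 desert.

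Footprints were found at most desert sites. At least 1 was present at 85.6% of desert sites in replicate 1 and 85.7% in replicate 2, against 91.0% and 90.5% of near-gene sites. In both libraries together the share was 75.7% for desert sites and 84.5% for near-gene sites. Signal was lower in deserts too, and its part in this gap was not tested. Among sites with a mean signal of 0.5 to 1, 92.6% of desert sites and 89.9% of near-gene sites had a footprint in both libraries. At 0.25 to 0.5 the shares were 66.4% and 66.0%, and above 1 they were 99.4% and 99.1%. Footprints at desert sites were narrower at the upper end: 8.89% in replicate 1 and 11.3% in replicate 2 were 20 bp or wider, against 15.3% and 17.97% at near-gene sites.

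Motifs were searched on both strands in the central 150 bp of each site and in windows of the same length centred 1 kb to either side. CTCF, MEF2, NFI and REST were searched as longer consensus words, and the others as exact words. The AP-1 word was TGANTCA, with any base in the middle, and the NEUROD word CAGATGG. Further words were GTTGCCATG for RFX, GCGTGGGCG for EGR and TGACGTCA for the cyclic AMP response element (CRE). The others were ATGCAAAT for POU, ACAATGG for SOX, ACATTCCA for TEAD, TAATTA for homeobox factors, CCGGAAG for ETS and AGATAAG for GATA factors. At least 1 of these 15 motifs occurred at 32.0% of desert sites. A match is a description of letters and does not show binding.

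CTCF matches were scarcer at desert sites than near genes. They occurred at 186 desert sites (3.81%), against 9.60% of near-gene sites and 7.78% of all shared sites away from start sites. In the flanking windows the share was 0.051% for desert sites and 0.189% for near-gene sites. The share fell with distance, from 11.6% within 10 kb of a 5′ end through 5.65% at 100 to 200 kb to 3.35% at 300 to 500 kb, and it was 4.37% (8 of 183 sites) beyond 1000 kb. With all merged peaks that hold a peak of 1 library it was 2.36% in deserts against 6.41% near genes in replicate 1, and 2.92% against 7.54% in replicate 2. The difference at shared sites was -5.79 percentage points. With each library's own peaks, not merged, the shares were 2.33% and 6.31% in replicate 1, and 2.91% and 7.55% in replicate 2. The difference was then -3.98 and -4.64 points.

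CTCF was also read within ranges of signal, where the gap was clearly smaller in proportion in all ranges but 0.25 to 0.5. Above a mean signal of 1, 14.1% of 618 desert sites had a match against 20.1% of 6936 near-gene sites. At 0.5 to 1 the shares were 4.75% and 6.22%, and at 0.25 to 0.5 they were 1.04% and 2.62%. Below 0.25 a match was at 0.568% of 352 desert sites and 0.803% of 623 near-gene sites. The range above 1 has no upper bound, and near-gene sites reached higher signals in it, up to 32.7 in replicate 1 and 34.7 in replicate 2 against 7.36 and 11.0 in deserts. The part of signal in the CTCF shares was not tested. CTCF sites were strong within the deserts: the median signal was 0.865 in replicate 1 and 1.09 in replicate 2 with a match, against 0.446 and 0.456 without. A match lay under a footprint at 95.2% of the CTCF sites in replicate 1 and 97.3% in replicate 2, with a median footprint width of 29 bp in both. Near genes the shares were 96.2% and 98.0% with a width of 30 bp.

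**Figure D4:**
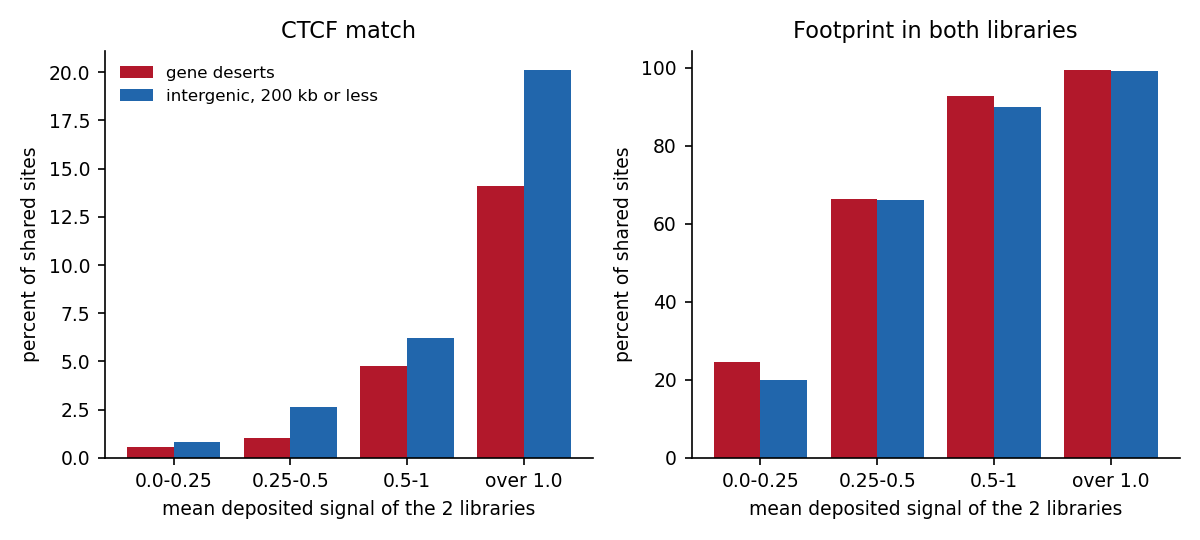
Percent of shared sites with a CTCF match (left) and with a footprint in both libraries (right) by mean deposited signal of the libraries, for gene deserts and near-gene intergenic sites. CTCF is lower in deserts in every signal range (14.1% against 20.1% above 1), while footprints are as frequent or more frequent (92.6% against 89.9% at 0.5 to 1).

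The CTCF words themselves were varied, and the most frequent are shown because they carry the footprint.
CTCF word in 20 sites: CCAGCAGGGGGC
CTCF word in 19 sites: CCACTAGATGGC
CTCF word in 18 sites: CCAGCAGATGGC
CTCF word in 17 sites: CCAGCAGAGGGC
CTCF word in 14 sites: CCACCAGGTGGC
Capitals cover the whole 12-base word, written on the strand of the match. Each of the 186 sites held 1 match, 83 on the plus strand and 103 on the minus strand. All copies of the first word lay under a footprint in both libraries, and those of the other 4 did so at 88.2% to 100% in each library. Of 29 neighbouring pairs of CTCF sites in the same desert, 8 pointed towards each other, 6 pointed apart and 15 pointed the same way.

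AP-1 and NEUROD shares were slightly higher in deserts over all sites. AP-1 occurred at 10.9% of desert sites and 9.36% of near-gene sites, against 4.60% and 4.29% in their flanks. NEUROD occurred at 10.7% of desert sites and 8.61% of near-gene sites, against 2.96% and 3.53% in the flanks. In all peaks of replicate 1, AP-1 stood at 9.24% in deserts and 8.27% near genes, and in replicate 2 at 10.5% and 9.22%. NEUROD stood at 8.45% and 7.49% in replicate 1, and at 9.65% and 8.02% in replicate 2. The order was the same in both animals for both motifs. Within ranges of signal, AP-1 stood at 10.9% in deserts and 11.2% near genes at a mean signal of 0.25 to 0.5, at 12.6% and 10.0% at 0.5 to 1, and at 7.77% and 7.28% above 1. NEUROD stood at 10.0% and 8.44%, at 11.9% and 9.03%, and at 11.7% and 8.62% in the same ranges. Below 0.25, AP-1 stood at 9.09% in deserts and 7.22% near genes, and NEUROD at 7.95% and 4.49%. One form of the CTCF word contains the NEUROD word, and their matches overlapped at 24 desert sites. Without windows that hold a CTCF match with up to 1 mismatch, NEUROD occurred at 9.08% of desert sites and 6.14% of near-gene sites.

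The share of matches under a footprint differed between motifs. AP-1 matches lay under one at 21.6% of the AP-1 sites in deserts in replicate 1 and 25.6% in replicate 2, against 26.0% and 29.6% near genes. NEUROD matches in windows without a CTCF match of up to 1 mismatch did so at 36.3% and 42.7% in deserts, against 38.3% and 41.0% near genes. RFX, the motif of factors of ciliary genes, occurred at 37 desert sites (0.758%) against 0.775% near genes, and at 0.133% of desert flanks. Its matches lay under a footprint at 35.1% of its desert sites in replicate 1 and 48.6% in replicate 2. CRE was at 75% and 62.5% of 8 desert sites and EGR at 66.7% and 100% of 6. NFI, a motif of glial and neuronal differentiation factors, occurred at 16 desert sites (0.328%) against 0.121% near genes, and 8 of the 16 lay under a footprint in both libraries.

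The homeobox, MEF2 and GATA motifs were rarer at the sites than beside them. The homeobox word occurred at 2.32% of desert sites against 5.49% of their flanks, and MEF2 at 1.52% against 3.38%. GATA occurred at 1.11% against 2.42%. Near-gene sites showed the same order, with homeobox at 2.07% against 3.99%, MEF2 at 1.33% against 2.45% and GATA at 1.21% against 1.93%. The windows of desert sites were 49.9% G and C and their flanks 41.7%, and the part of base composition in these shares was not tested. At desert sites MEF2 lay under a footprint at 10.8% of its 74 sites in replicate 1 and 17.6% in replicate 2, and at 2 of the 74 in both. POU stood at 1.496% in deserts against 0.938% near genes, and at 1.13% of desert flanks, but 0 of its 73 desert sites had the match under a footprint in both libraries. SOX, TEAD, ETS, EGR, CRE and REST occurred at between 0.082% and 1.95% of desert sites.

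**Figure D5:**
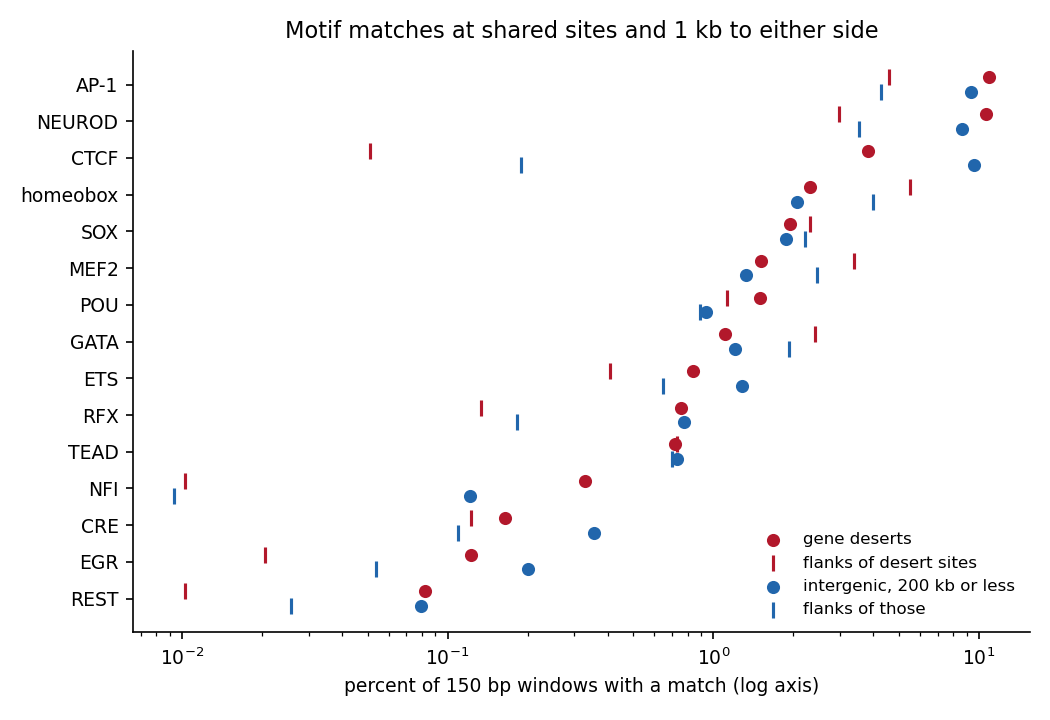
Percent of 150 bp windows with a match (log axis) for 15 motifs at gene desert sites and near-gene intergenic sites (points) and in windows 1 kb to either side (ticks). CTCF stands farthest to the left in deserts relative to near-gene sites (3.81% against 9.60%), and homeobox, MEF2 and GATA points lie left of their flank ticks.

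Genes next to desert sites were read through 6 gene lists, by the nearest protein-coding 5′ end. Desert sites were nearest to 1109 genes, out of 1574 genes that are nearest to some desert DNA. Since density falls with distance, each list is set beside the number of sites its desert DNA would hold at the density of all desert DNA in the same distance bands. Transcription factors of the cortex were nearest to 190 sites in 14.9 Mb, 12.7 per Mb against 9.19 for all desert DNA, where the bands would give 140. The 4 genes of this list with the most sites held 68, where the bands would give 27.2, and the other genes held 122, where they would give 113. Transcription factors of other brain regions and tissues were nearest to 95 sites, 12.2 per Mb, where the bands would give 91.6. Its 4 genes with the most sites held 47, where the bands would give 20.4, and the others held 48, where they would give 71.2. Neuronal adhesion and synaptic organiser genes were nearest to 12.7% of desert DNA but to 230 sites (4.71%), 3.41 per Mb, where the bands would give 444. Axon guidance genes had 103 sites where the bands would give 120, and channel and transmitter receptor genes 81 where they would give 113. Olfactory and vomeronasal receptor genes had 6 sites where they would give 13.4. A list of genes shares deserts among its members, and these counts have no error from replication.

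The named genes of each list were chosen for having the most sites, which favours counts above the band values. Within the cortical transcription factor list, Bcl11a had 23 desert sites at 204 to 1046 kb, where the bands would give 6.99. Their strongest signal was 1.06 in replicate 1 and 1.38 in replicate 2. Tshz3, a zinc finger factor gene, had 17, where the bands would give 6.89, with a strongest signal of 1.37 and 1.49. Id2 had 13, where they would give 4.54. Zeb2, a zinc finger factor of interneuron and glial development, had 15, where they would give 8.76, and its sites were weak with medians of 0.334 and 0.399.

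Among adhesion genes, Cdh11 (a cadherin) had 21 sites where the bands would give 13.1. Cdh8 had 14 where they would give 14.6. Tenm4, a teneurin gene, had 14 where they would give 8.13. Adgrl2, which encodes the adhesion receptor latrophilin 2, had 12 where they would give 14.3. These 4 genes were named for having the most sites in the list. In the guidance list, Epha4 had 13 sites, and Nrp1 (a semaphorin co-receptor) and Robo2 (a Slit receptor) had 12 each. The bands would give 8.68, 4.63 and 7.42 for these 3 genes. Epha7, another ephrin receptor gene, had 10 where they would give 15.4.

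The receptor and channel genes with the most sites had 5 to 8, next to 0.0893 to 0.756 Mb of desert DNA each. Kcnj3, a G protein-gated potassium channel gene, had 8 where the bands would give 7.52. The muscarinic receptor gene Chrm3 had 7 where they would give 5.75. The AMPA receptor gene Gria1 had 6 where they would give 3.498, and the dopamine receptor gene Drd1 had 5 where they would give 1.29. The 5 sites of Drd1 were strong, with medians of 0.809 in replicate 1 and 1.35 in replicate 2 and a strongest signal of 1.42 and 3.13. Among transcription factors listed for other regions and tissues, Sox9 had 22 sites, where the bands would give 8.73. Sox9 is also the astrocyte marker whose promoter was open here. Its strongest desert signal was 2.06 and 2.61. Tbx3 had 10 sites, Irx1 (an Iroquois homeobox gene) had 9 and Foxa2 (a forkhead gene of floor plate and endoderm) had 6. The strongest signal was 2.61 in replicate 1 and 3.17 in replicate 2 for Tbx3, and 1.35 and 2.13 for Foxa2. The strongest Tbx3 site is the AP-1 site whose sequence is printed above.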

How the data were processed

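DNase-seq calls of 2 libraries were used. Per the labels, the authors aligned reads to mm10. The aligner and callers were not given in the sources used here. The deposited signal of a peak is a height scaled by the authors to read depth, in whole multiples of 1 step (tolerance 0.05 of a step), which read as 1 cut after scaling to 1 M gives 206 M and 208 M cuts. The deposited footprint tables give a false discovery rate as a fraction, 0.01 throughout, and the deposited cut-rate tables give q-values below 0.05. The larger of the authors' 2 peak lists per library was used (128323 and 119651 peaks). A merged peak takes its highest member signal per library. Gene positions came from GENCODE M21 on GRCm38.p6, the same build, and density used every 10th base that is not N. Work was done in Python 3.11.15 with numpy 2.4.6, pandas 2.3.3 and numba 0.67.0, and the functions were tested on simulated data. Named genes flank the 10 deserts with the most sites and the 5 longest empty ones, or are nearest to the 10 strongest sites, or lead each gene list (up to 4). The sites and lists were chosen with earlier results of these data known. Both libraries form 1 group, so no test was run: 2 libraries against 2 could not go below p = 0.333 in an exact permutation test. Reads of the CAST/EiJ alleles may align less often, and alleles were not analysed here.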

Additional observations from a re-analysis of the deposited data

How the results depend on the processing

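Alternatives were run for the number of sites, the density ratio and the differences in signal, CTCF and footprints between desert and near-gene sites, and none of these changed direction. The other motifs, sharing, clusters and gene lists were not run under them. With a limit of 100 kb there were 8651 sites, a density ratio of 0.410 and a footprint difference of -8.26 percentage points. With 500 kb there were 1265 sites, a density ratio of 0.229, a log2 signal difference of -0.74, a CTCF difference of -5.06 points and a footprint difference of -14.0 points. The smaller peak lists gave 2140 sites, a density ratio of 0.269, a log2 signal difference of -0.55, a CTCF difference of -7.06 points and a footprint difference of -0.825 points, so the footprint gap nearly closed among those peaks. Overlap of 50% of each peak gave a density ratio of 0.327, a log2 signal difference of -0.66, a CTCF difference of -6.58 points and a footprint difference of -7.50 points. With the bodies of all genes left out the density ratio was 0.336 and the footprint difference -9.27 points. With the start of every coding transcript the density ratio was 0.334. With 1 mismatch allowed in the CTCF consensus the difference was -12.8 points. The causes of these shifts were not tested. Each library alone gave 7880 to 8342 sites, density ratios of 0.385 to 0.391, log2 signal differences of -0.59 to -0.51, CTCF differences of -4.64 to -3.98 points and footprint differences of -8.86 to -7.52 points. Leaving out repeated sequence, taking the mean signal of members, searching the whole peak for CTCF and asking for footprints wholly inside the peak kept every value they bear on within 1 SD of the libraries, or within 1.5 times for the count. Differences between desert and near-gene sites were also taken within each library, and no paired test was run on 2 libraries. The comparisons at equal signal, the NEUROD count without CTCF and the band values of the gene lists were chosen after seeing the data. Weak sites were the least repeated, and the part of depth in this was not tested: under a signal of 0.25, 21.9% of desert peaks of replicate 1 and 20.4% of replicate 2 were found in the other animal.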
